A study of Mus musculus with 44 samples.

Results

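The proteasome genes were taken from the annotation of a mouse expression array as every gene whose symbol begins with Psm, one of the letters a to g and a digit, provided that a probe set named that gene alone. Each gene was read from 1 probe set, the one with the highest mean, and 50 of the 19938 measured genes qualified. Of these, 31 encode constitutive subunits of the 20S core and 19S cap, 3 encode the immunoproteasome subunits Psmb8, Psmb9 and Psmb10, and 14 are accessory or tissue-specific. The other 2, Psmc3ip and Psme3ip1, match the pattern by name but encode no proteasome component. The values came from 44 arrays of macrophages (MFs) sorted from the tibialis anterior muscle after injury with cardiotoxin, a snake venom toxin that kills muscle fibres.

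The proteasome is the barrel-shaped protease that degrades proteins tagged with ubiquitin. Its 20S core is built of alpha subunits, which form the gate, and beta subunits, of which Psmb5, Psmb6 and Psmb7 carry the constitutive active sites. The 19S cap holds ATPases of the Psmc family, which unfold the substrate, and non-ATPase subunits of the Psmd family, which bind and remove ubiquitin. In immune cells and under interferon gamma, Psmb8, Psmb9 and Psmb10 take the places of Psmb5, Psmb6 and Psmb7 in newly built cores, and the resulting immunoproteasome is known for producing peptides for MHC class I. Activators of the Psme family can bind the core in place of the 19S cap. MFs, which present antigen, are among the cells known for expressing immunoproteasome subunits.

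Ly6C+ F4/80low MFs were sorted at days 1, 2 and 4 after injury, and Ly6C- F4/80high MFs at day 2. Knockout (KO) mice were C57B6/J, PPARg fl/fl and LysM Cre+, a design in which the Cre expressed from the lysozyme gene Lyz2 removes PPARg from myeloid cells. They gave 4, 5 and 4 Ly6C+ arrays at days 1, 2 and 4 and 5 Ly6C- arrays. WT C57B6/J mice treated with rosiglitazone, a PPARg agonist, gave 3 Ly6C+ and 3 Ly6C- arrays at day 2. Untreated WT mice gave 4, 6 and 4 Ly6C+ arrays at days 1, 2 and 4 and 6 Ly6C- arrays. Every muscle was injured, so no group represents resting tissue. Replicates were labelled biological, the series text names 3 animals, and p-values therefore measure the spread between these arrays. Because RNA was pooled from a whole sorted population, fewer cells of a type and less RNA per cell cannot be told apart.

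The arrays carried 2 limits that touch the comparisons below. First, Lyz2, in which the Cre sits, read 9.07 to 9.96 on the KO arrays, against 12.81 to 13.19 on rosiglitazone arrays and on WT arrays of days 1 and 4. The day 2 arrays labelled WT were split, with 8.67 to 9.29 in replicates 1 to 3 and 12.64 to 13.02 in replicates 4 to 6. Many member and list counts of the WT contrasts, though not all, are therefore also given for both sets. Pparg was not lower in KO arrays (KO minus WT between 0.00 and 0.24 in the 4 group pairs), and since the position of its probes relative to the deleted part was not given, this checks nothing. Second, 1 probe set shared by Ly6c1 and Ly6c2 read 9.21 to 10.78 on the day 4 KO arrays and 9.58 to 10.09 on the day 4 WT arrays. It read 11.59 to 12.26 on Ly6C+ arrays of days 1 and 2 and 8.61 to 9.55 on the Ly6C- arrays. Another probe set shared by both genes read 9.64 to 10.94 on the day 4 KO arrays and 9.98 to 10.42 on the day 4 WT arrays. Its values were 11.83 to 12.43 on Ly6C+ arrays of days 1 and 2 and 8.98 to 9.98 on the Ly6C- arrays. Adgre1, the gene of the other sorting marker, read 12.16 to 12.37 at day 4, 11.94 to 12.16 in day 2 Ly6C- MFs and 11.16 to 11.68 in Ly6C+ MFs of days 1 and 2. By their group means on these markers, the day 4 samples labelled Ly6C+ stood nearer to the day 2 Ly6C- MFs, and they were compared with both day 2 subsets. This did not hold for every array: the highest day 4 KO values of the shared probe sets, 10.78 and 10.94, lay clear of both day 2 subsets.

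The promoters of 3 catalytic subunits are shown because these genes mark the contrasts described below: Psmb6 differed most between the WT subsets, and Psmb8 and Psmb9 were highest at day 4. The windows run 5′ to 3′ on the coding strand from 250 bases before to 50 bases after the gene start (RefSeq, GRCm38.p6), at chr11:70525107-70525406 on the plus strand for Psmb6, chr17:34197945-34198244 on the plus strand for Psmb8 and chr17:34187281-34187580 on the minus strand for Psmb9. Capitals mark a match to the antioxidant response element core, TGACNNNGC, in Psmb6.
Psmb6: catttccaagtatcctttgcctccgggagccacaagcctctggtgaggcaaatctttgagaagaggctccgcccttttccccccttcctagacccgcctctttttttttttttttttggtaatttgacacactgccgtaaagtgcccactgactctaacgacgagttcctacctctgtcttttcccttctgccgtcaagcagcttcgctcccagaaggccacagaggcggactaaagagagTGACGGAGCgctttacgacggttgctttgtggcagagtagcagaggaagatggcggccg
Psmb8: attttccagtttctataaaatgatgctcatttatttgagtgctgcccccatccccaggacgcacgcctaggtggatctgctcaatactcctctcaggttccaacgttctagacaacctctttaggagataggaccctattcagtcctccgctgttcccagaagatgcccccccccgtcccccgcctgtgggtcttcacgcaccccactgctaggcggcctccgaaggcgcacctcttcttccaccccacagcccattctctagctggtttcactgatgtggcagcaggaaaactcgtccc
Psmb9: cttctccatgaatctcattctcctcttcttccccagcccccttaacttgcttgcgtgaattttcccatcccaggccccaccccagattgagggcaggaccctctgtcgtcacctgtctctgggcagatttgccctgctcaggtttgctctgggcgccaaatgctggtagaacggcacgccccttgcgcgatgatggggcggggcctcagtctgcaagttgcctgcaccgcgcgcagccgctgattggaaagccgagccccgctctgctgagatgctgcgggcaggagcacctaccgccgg
Psmb8 and Psmb9 held no match to this core. Both strands were searched in the 42 members that had a window. The antioxidant response element core, bound by Nfe2l1 and Nfe2l2, occurred in 4 of 25 constitutive subunit promoters (16.0%) and 0 of 3 immunoproteasome promoters, against 14.0% of 27025 promoters of all genes. The interferon-stimulated response element core, GAAA and GAAA with NN between them, occurred in 2 of 25 constitutive (8.0%) and 0 of 3 immunoproteasome promoters, against 4.0% of all. The CCAAT box, bound by NF-Y, occurred in 10 of 25 constitutive (40.0%) and 1 of 3 immunoproteasome promoters, against 41.1% of all.

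All values are RMA log2 values, so a difference is a log2 fold change of the array signal, and levels of different genes are not compared. Member means over the 44 arrays ran from 5.86 for Psma8, a testis alpha subunit, to 12.30 for Psmb3, a core beta subunit, and no constitutive subunit averaged below 8.37. The testis, thymus and name-only members Psma8, Psmb11 and Psmc3ip had the lowest means (5.86, 6.27 and 6.22). Constitutive subunits and immunoproteasome genes had their highest means in different MFs. Of the 31 constitutive subunits, 29 (93.5%) had their highest group mean in 1 of the 3 day 2 Ly6C- groups and 0 in a day 4 group, whereas all 3 immunoproteasome genes had theirs at day 4. Over all 19938 genes these shares were 19% for day 2 Ly6C- and 20.5% for day 4. The exceptions among constitutive subunits were Psma7, highest in WT day 2 Ly6C+ MFs, and Psmb3, highest in rosiglitazone Ly6C+ MFs. Across the 10 group means, the immunoproteasome genes moved closely together (Pearson's r 0.90 to 0.93 between pairs), constitutive subunits less uniformly (median r 0.65, range -0.61 to 0.99), and the pairs of 1 gene from each class had a median r of -0.38 (range -0.97 to 0.32). The 10 means share arrays, sorting and normalization, so these correlations describe the pattern only.

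**Figure D1:**
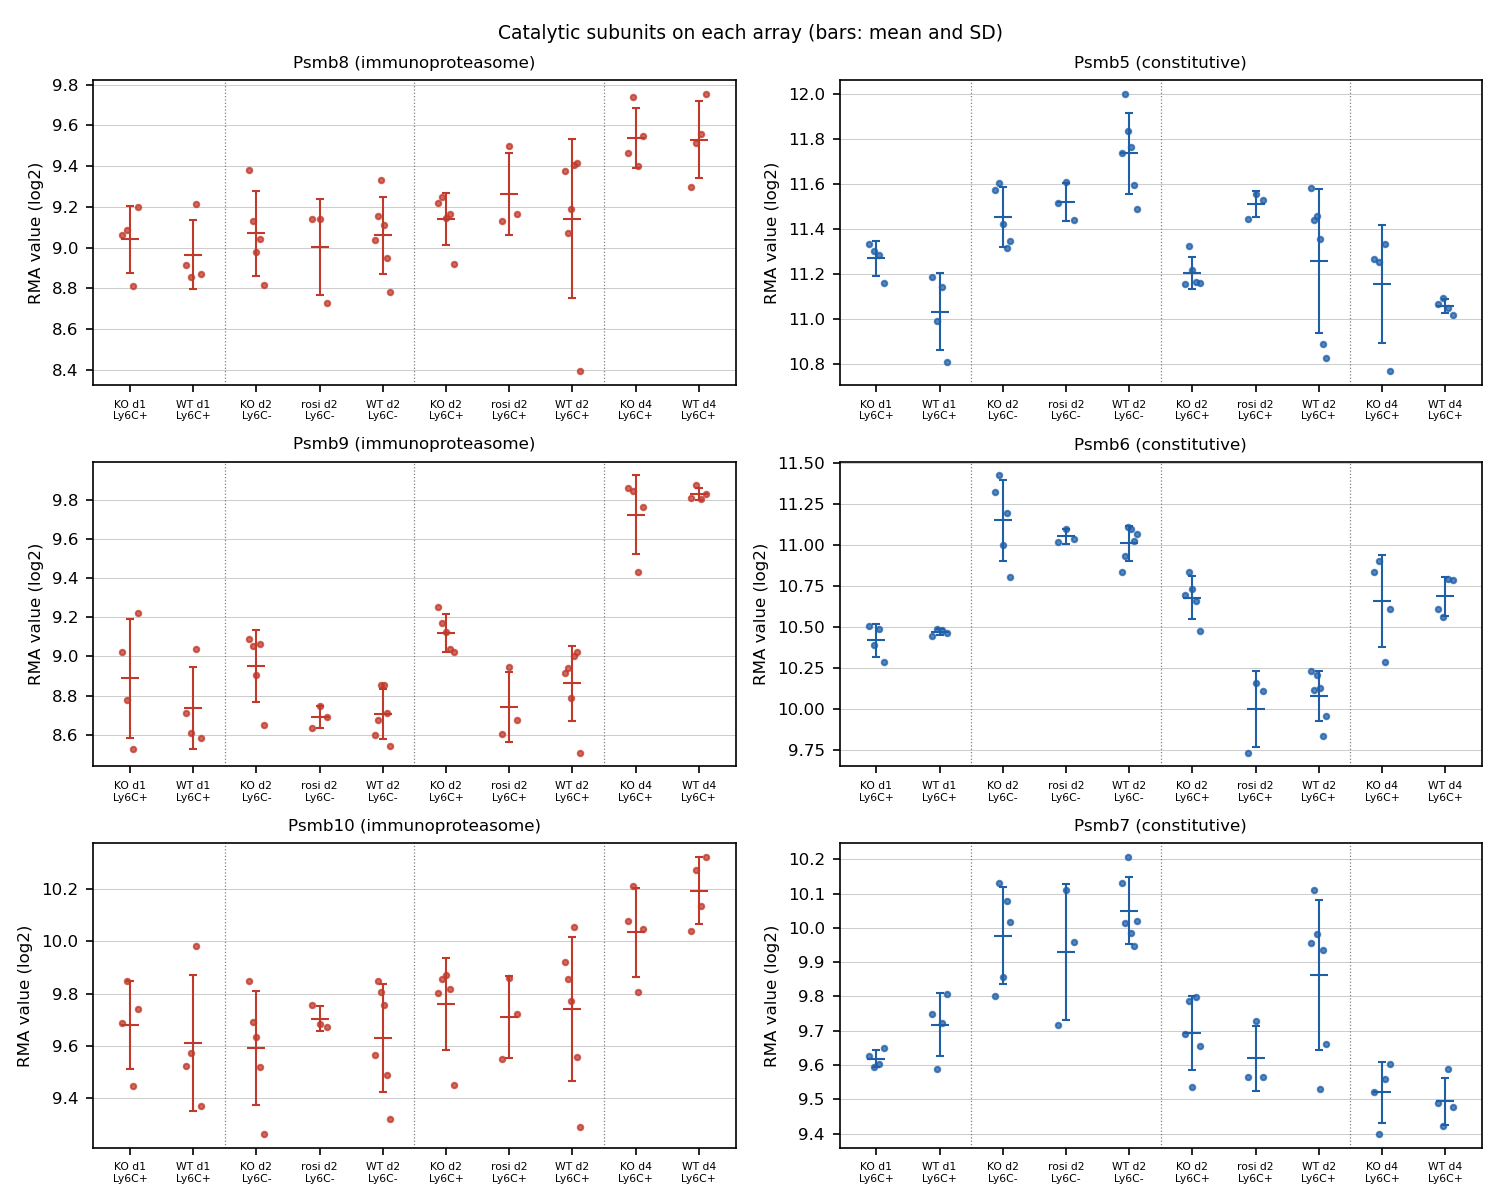
RMA log2 values of the immunoproteasome subunits (left, red) and their constitutive counterparts (right, blue) on every array, with group means and SD; d1, d2 and d4 are days after injury and rosi is rosiglitazone-treated WT. Psmb9 stood between 9.43 and 9.88 on all day 4 arrays and below 9.30 elsewhere, while Psmb6 was highest in the day 2 Ly6C- groups.

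The first comparison asked how the proteasome genes differed between the Ly6C- and Ly6C+ MFs present together at day 2. In untreated WT muscle, constitutive subunits were higher in Ly6C- MFs and the immunoproteasome genes did not pass the test. Psmb6, the caspase-like active subunit, read 10.84 at the lowest, 11.04 at the median and 11.11 at the highest in WT Ly6C- MFs, against 9.84, 10.12 and 10.23 in WT Ly6C+ MFs. Every Ly6C- array lay above every Ly6C+ array, and the difference of means was 0.93 ± 0.09 (SE, limma adjusted p = 5.8e-11). Psmd5, a chaperone of 19S assembly, read 8.07, 8.39 and 8.58 in WT Ly6C- MFs against 7.31, 7.47 and 7.83 in WT Ly6C+ MFs, again without overlap. Its difference was 0.84 ± 0.10 (adjusted p = 9.5e-09).

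Over all 50 members, 31 were higher and 1 was lower in WT Ly6C- MFs by limma at an adjusted p below 0.05, where 45.2% of all genes passed in either direction (22.2% higher and 23% lower). Of the 31 constitutive subunits, 24 were higher and 0 lower, with a median difference of 0.40 against -0.07 over all genes. Constitutive subunits are bright on the array, and among the 5403 genes at least as bright as the dimmest of them 38.2% were higher and 18.4% lower, with a median of 0.11. By role, all 6 ATPases, 9 of 11 non-ATPase cap subunits, 4 of 7 alpha subunits and 5 of 7 constitutive beta subunits were higher. All 3 chaperones of 19S assembly, Psmd5, Psmd9 and Psmd10, were higher too, against 1 of 4 chaperones of 20S assembly.

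Psmd1, the large scaffold subunit of the cap base, was 0.70 ± 0.09 higher (adjusted p = 1e-07), and its values in Ly6C- MFs (10.98 to 11.57) did not overlap those in Ly6C+ MFs (10.41 to 10.89). Psmd10, also known as gankyrin, was 0.65 ± 0.09 higher (adjusted p = 1.8e-07), at 9.38 to 9.87 in Ly6C- MFs against 8.70 to 9.18 in Ly6C+ MFs. Psmd6, a subunit of the cap lid, was 0.68 ± 0.13 higher (adjusted p = 6.5e-05), but its lowest Ly6C- array (9.58) lay just under its highest Ly6C+ array (9.59). The catalytic subunits Psmb5 (0.48 ± 0.10, adjusted p = 0.00016) and Psmb7 (0.19 ± 0.08, adjusted p = 0.043) were higher by less, and Psmb7 lost its call when any of 5 arrays was left out.

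The immunoproteasome genes gave small negative values, with -0.08 ± 0.12 for Psmb8, -0.16 ± 0.10 for Psmb9 and -0.11 ± 0.11 for Psmb10 (adjusted p = 0.594, 0.186 and 0.421 by limma). Psmb9 read 8.54, 8.69 and 8.86 in WT Ly6C- MFs and 8.51, 8.93 and 9.02 in WT Ly6C+ MFs, so the subsets overlapped. Psme1, an interferon-inducible activator subunit, was the 1 member that was lower (-0.24 ± 0.08, adjusted p = 0.015), and without WT Ly6C+ replicate 1 its adjusted p was 0.0606. The counts of constitutive subunits in the 2 sets of WT arrays were 17 higher and 0 lower with replicates 1 to 3 (34.8% of all genes passed) and 22 higher and 0 lower with replicates 4 to 6 (30.0%).

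The same subset comparison in KO muscle gave 21 members higher and 0 lower, where 38.4% of all genes passed (19.8% higher and 18.6% lower). Constitutive subunits accounted for 16 of these, with a median difference of 0.24 against -0.09 over all genes. They included 5 of 6 ATPases and 6 of 11 non-ATPase cap subunits but only 2 of 7 alpha and 3 of 7 beta subunits. Among the 5403 genes at least as bright as the dimmest constitutive subunit, 33% were higher and 16.4% lower, with a median of 0.09. Psmd5 read 8.51, 8.69, 8.47, 8.45 and 8.34 in KO Ly6C- MFs against 7.95, 7.87, 7.74, 7.72 and 7.42 in KO Ly6C+ MFs, a difference of 0.75 (limma adjusted p = 8.2e-07) without overlap. Psmb6 read 11.32, 11.42, 11.00, 11.20 and 10.80 in KO Ly6C- MFs against 10.69, 10.83, 10.73, 10.66 and 10.48 in KO Ly6C+ MFs. Here 1 Ly6C- array fell among the Ly6C+ arrays, and the difference was 0.47 ± 0.10 (adjusted p = 0.00029). Psmg2, a chaperone that starts the alpha ring, was 0.62 higher in Ly6C- MFs, and Psmd1 and Psmd10 were each 0.58 higher.

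Under rosiglitazone, 22 members were higher and 0 lower in Ly6C- MFs, where 23.2% of all genes passed (14.6% higher and 8.68% lower). They included 16 constitutive subunits (median 0.32 against -0.04 over all genes) with all 6 ATPases. Among the 5403 genes at least as bright as the dimmest constitutive subunit, 25.6% were higher and 16.3% lower, with a median of 0.05. Psmb6 read 11.02, 11.10 and 11.04 in rosiglitazone Ly6C- MFs against 9.74, 10.16 and 10.11 in rosiglitazone Ly6C+ MFs, with no overlap and a difference of 1.05 ± 0.13 (limma adjusted p = 3.1e-08). The count rested partly on 1 array: without rosiglitazone Ly6C+ replicate 1 it was 9 members, and Psmd6 (0.71 with it) was 0.52 at an adjusted p of 0.0736. Immunoproteasome genes passed in 0 of 3 cases in both KO and rosiglitazone muscle. A difference between KO and WT, or between rosiglitazone and untreated muscle, in the size of the subset effect passed for 0 of the 50 members by limma's interaction tests (0.01% and 0.015% of all genes), with 2 and 4 members at an unadjusted p below 0.05.

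**Figure D2:**
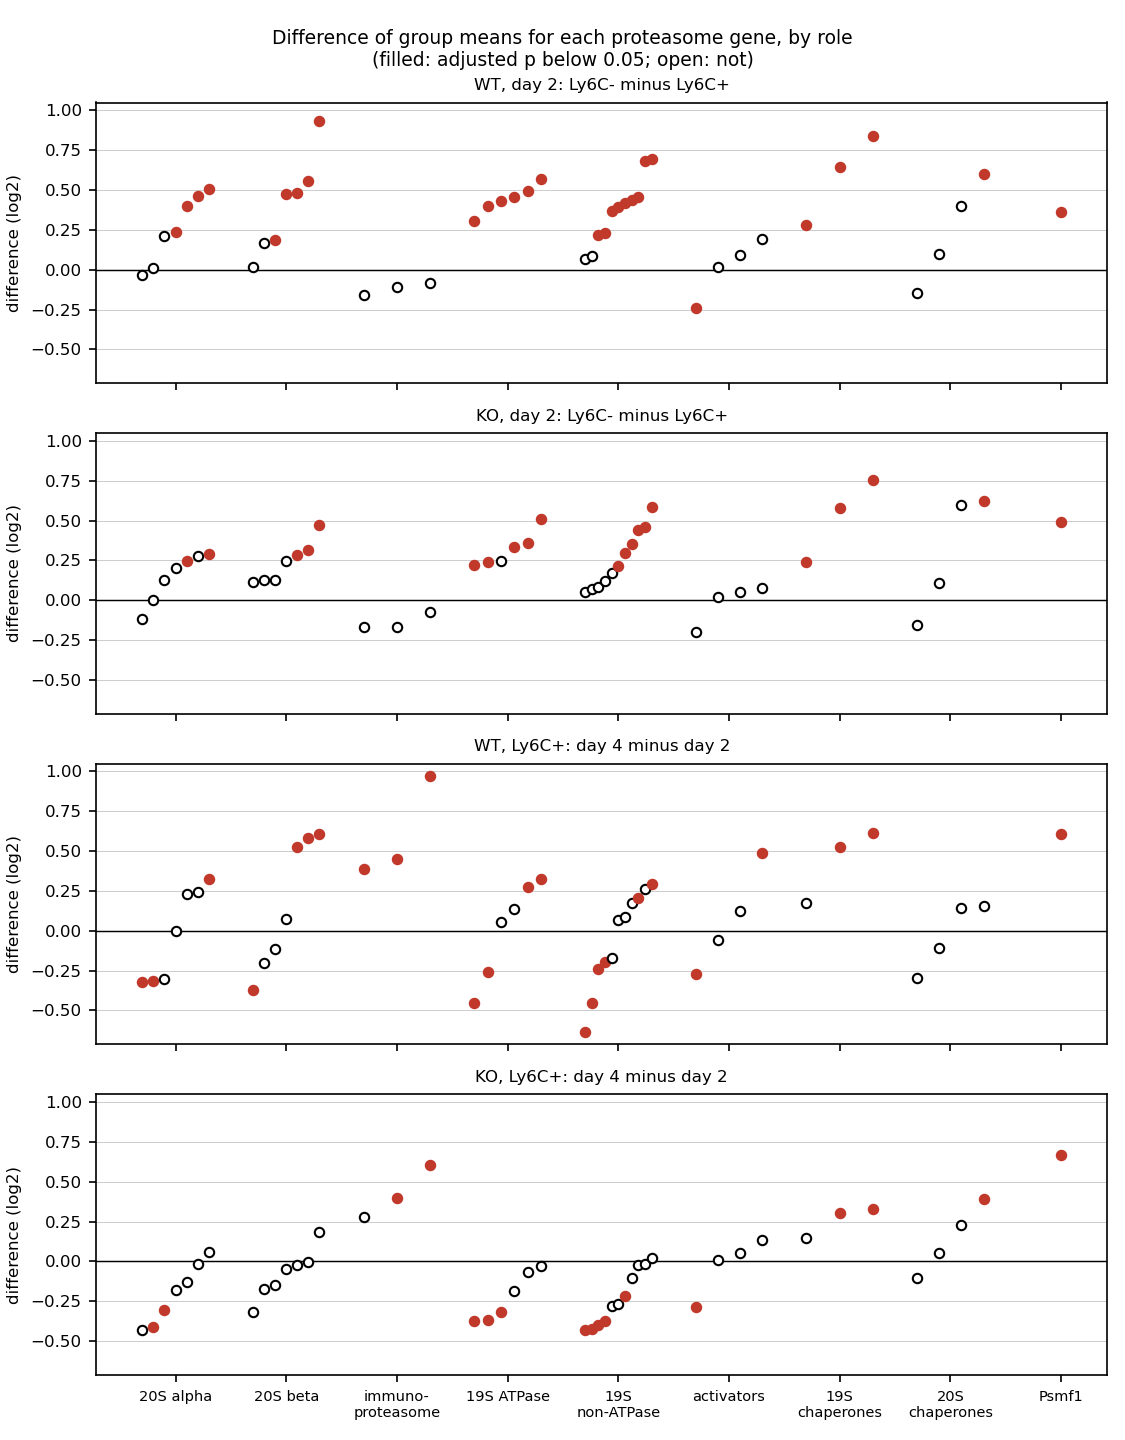
Difference of group means in log2 units for each proteasome gene, sorted within its role, in 4 contrasts; filled points had a limma adjusted p below 0.05 and open points did not. In the subset contrasts the ATPase, non-ATPase and 19S chaperone genes lie mostly above 0 while the 3 immunoproteasome genes lie just below it, and in the day 4 contrasts the immunoproteasome genes lie above 0.

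Markers of other cells and of cell division differed between the subsets as well. Over all genes, 19.8% were higher and 18.6% lower in KO Ly6C- MFs. These shares were 14.6% and 8.68% under rosiglitazone, and 22.2% and 23% in untreated WT muscle. Of 15 cell cycle genes, 14 were higher in Ly6C- MFs of WT and KO muscle and all 15 under rosiglitazone, and their mean level on the WT arrays was 7.91 to 8.45 in Ly6C- MFs against 7.02 to 7.34 in Ly6C+ MFs. In WT muscle, 7 of 12 neutrophil markers, 6 of 10 T and NK cell markers, 5 of 8 fibroblast markers and 7 of 8 endothelial markers were lower in Ly6C- MFs, and 2 neutrophil markers were higher. Dendritic cell markers were lower in 4 of 8 cases in KO muscle, 3 under rosiglitazone and 4 in untreated WT muscle. Fibroblast and endothelial markers followed the WT set. In replicates 1 to 3, 7 and 7 of 8 were lower (34.8% of all genes passed), against 0 and 2 in replicates 4 to 6 (30%). T and NK cell markers were lower in 4 of 10 cases with replicates 1 to 3 and in 1 of 10 with replicates 4 to 6. For neutrophil markers these counts were 6 and 5 of 12, with 1 higher in each set, and for dendritic cell markers 4 and 3 of 8. The mean level of the neutrophil list was 6.39 to 6.50 on WT Ly6C- arrays and 6.80 to 7.10 on WT Ly6C+ arrays. Their part in the proteasome differences was not tested.

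The second comparison followed Ly6C+ MFs over time. In the step to day 2, 2 members were higher at day 2 than at day 1 and 0 lower in KO muscle (8.64% of all genes passed, 6.06% higher and 2.58% lower), and in WT muscle 3 were higher and 1 lower (9.69% passed, 6.51% higher and 3.17% lower). These counts were not stable. In WT muscle 8 members were higher and 6 lower with day 2 replicates 1 to 3 (17.1% of all genes passed), 2 and 1 with replicates 4 to 6 (10.6%), while 7 passed without replicate 6 and 2 with only the compared groups fitted. In KO muscle 5 passed without day 2 replicate 5 or without dim genes, 8 with only the compared groups fitted and 11 with the replicate number as a block. Psmg2 was higher in both. It read 8.17, 7.99, 7.89, 7.97 and 7.70 on KO arrays of day 2 against 7.44, 7.29, 7.55 and 7.05 at day 1, a difference of 0.61 (limma adjusted p = 0.0004). On WT arrays it read 7.71 at the lowest, 7.93 at the median and 8.19 at the highest at day 2, against 7.59, 7.35, 7.49 and 7.04 at day 1, a difference of 0.57 ± 0.11 (adjusted p = 0.00036). No day 1 array reached a day 2 array of its genotype. Psmd5 was 0.59 higher at day 2 in KO muscle (adjusted p = 0.0014).

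Psmb6 was lower at day 2 in WT muscle, with 9.84, 10.12 and 10.23 at day 2 against 10.45, 10.49, 10.48 and 10.46 at day 1 (difference -0.39 ± 0.10, limma adjusted p = 0.011), and all 6 day 2 arrays lay below all 4 day 1 arrays. Its call was lost with WT day 2 replicates 1 to 3 alone. Psmg4, a partner in 20S assembly, was 0.54 higher at day 2 in WT muscle (adjusted p = 0.0064), and this differed between the sets of day 2 arrays: replicates 1 to 3 read 8.94, 8.80 and 8.89, and replicates 4 to 6 read 8.22, 8.75 and 7.99. With replicates 4 to 6 alone it lost its call. Psma4, an alpha subunit, was 0.29 higher (adjusted p = 0.044) and lost its call when any of 7 arrays was left out. Immunoproteasome genes gave 0.10, 0.23 and 0.08 for Psmb8, Psmb9 and Psmb10 in KO muscle and 0.18, 0.13 and 0.13 in WT muscle, and none passed.

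Between day 2 and day 4, 2 of the 3 immunoproteasome genes rose in KO muscle and all 3 in WT muscle, while 10 of 31 constitutive subunits fell in KO muscle and 8 rose and 9 fell in WT muscle. Psmb9, which replaces Psmb6, read 9.86, 9.85, 9.43 and 9.76 on the day 4 KO arrays against 9.25, 9.17, 9.13, 9.04 and 9.02 on the day 2 KO arrays (difference 0.60 ± 0.11, limma adjusted p = 3e-05). On the day 4 WT arrays it read 9.81, 9.88, 9.81 and 9.83, against 8.51, 8.93 and 9.02 as lowest, median and highest of the day 2 WT arrays (difference 0.97 ± 0.11, adjusted p = 1e-09). In both genotypes all day 4 arrays lay above all day 2 Ly6C+ arrays.

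Psmb8, which replaces Psmb5, read 9.46, 9.74, 9.40 and 9.55 on the day 4 KO arrays against 9.22, 9.25, 9.15, 9.17 and 8.92 on the day 2 KO arrays (difference 0.40 ± 0.14, limma adjusted p = 0.022). On the day 4 WT arrays it read 9.30, 9.51, 9.56 and 9.75, against 8.39, 9.28 and 9.42 at day 2 (difference 0.39 ± 0.14, adjusted p = 0.019), and the groups overlapped. The WT call rested on single arrays: without day 2 replicate 6, the array at 8.39, the difference was 0.24 (adjusted p = 0.0869), and without day 4 replicate 4 it was 0.31 (adjusted p = 0.091). The KO call was likewise lost without day 2 replicate 5 (0.34, adjusted p = 0.0689) or day 4 replicate 2 (0.33, adjusted p = 0.0818). Psmb10, which replaces Psmb7, was 0.28 ± 0.13 in KO muscle and did not pass (adjusted p = 0.0806), and it rose by 0.45 ± 0.13 in WT muscle (adjusted p = 0.0028). Its values were 10.08, 10.21, 9.80 and 10.05 on the day 4 KO arrays, and 10.04, 10.28, 10.14 and 10.32 on the day 4 WT arrays against 9.29, 9.81 and 10.06 at day 2 in WT. All 3 genes were higher at day 4 with either set of WT day 2 arrays.

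Of the 31 constitutive subunits, 21 did not pass in KO muscle and 14 did not in WT muscle. Among the 5403 genes as bright as they are, 31.9% rose and 26.7% fell in KO muscle, and 37.6% rose and 28.1% fell in WT muscle. Over all 50 members, 7 rose and 11 fell in KO muscle (44.8% of all genes passed, 22.3% higher and 22.5% lower), and 15 rose and 11 fell in WT muscle (49.8% passed, 23.8% higher and 26% lower), so the share of members that changed was near that of all genes. The KO decreases included 3 of 6 ATPases, 5 of 11 non-ATPase cap subunits, 2 of 7 alpha subunits and 0 of 7 beta subunits. The WT increases included 3 beta subunits: Psmb6 (0.61), Psmb4 (0.58, a call lost with day 2 replicates 4 to 6 alone) and Psmb1 (0.53). Against WT day 2 replicates 1 to 3, 14 constitutive subunits rose and 9 fell (54% of all genes passed), and against replicates 4 to 6, 4 rose and 6 fell (39% passed). The interaction test of genotype with this step passed for 0 of the 50 members (0.0301% of all genes), and 12 members had an unadjusted p below 0.05. For the step to day 2 it also passed for 0 members (0.01% of all genes), with 13 at an unadjusted p below 0.05. With WT day 2 replicates 1 to 3, however, 7 members passed for the step to day 4 (4.8% of all genes) and 8 for the step to day 2 (5.57%), against 0 for both with replicates 4 to 6 (0.0451% and 0.015%). Without WT day 2 Ly6C+ replicate 4, 1 member passed for the step to day 4, and with the replicate block 1 passed for the step to day 2.

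Psmd14, the cap enzyme that removes ubiquitin chains, fell in both genotypes. It read 10.32, 10.33, 10.39 and 10.76 on the day 4 KO arrays against 10.96, 10.80, 10.83, 11.02 and 10.79 at day 2 (difference -0.43), and 10.34, 10.26, 10.32 and 10.35 on the day 4 WT arrays against 10.82, 10.97 and 11.14 at day 2 (difference -0.63 ± 0.09, limma adjusted p = 1.4e-07). No day 4 array reached the day 2 arrays of its genotype. Psmd11, a lid subunit, fell by 0.42 in KO and by 0.46 in WT muscle. The ATPase Psmc5 fell by 0.45 in WT muscle, at 7.91 to 8.01 on day 4 arrays against 8.27 to 8.58 at day 2. Psmb7 fell by 0.37 in WT muscle (adjusted p = 0.00043), at 9.49, 9.42, 9.59 and 9.48 on day 4 arrays, but lost its call with day 2 replicates 4 to 6 alone.

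Of the 14 accessory and tissue-specific genes, 4 rose and 1 fell in KO muscle and 4 rose and 2 fell in WT muscle. Over all genes, 22.3% rose and 22.5% fell in KO muscle, and 23.8% rose and 26% fell in WT muscle. Psmf1, a core regulator also known as PI31, read 9.94, 9.79, 9.99 and 9.94 on the day 4 KO arrays (0.67 above day 2, limma adjusted p = 9.5e-07) and 9.73, 9.87, 9.91 and 9.86 on the day 4 WT arrays, against 8.93, 9.31 and 9.44 at day 2 in WT (difference 0.61). Psmd10 rose by 0.33 and 0.53 and Psmd5 by 0.31 and 0.61 in KO and WT muscle, and the KO call of Psmd5 was lost when any of 5 arrays was left out. Of the activators, Psme2 rose in WT muscle by 0.49 ± 0.12 (adjusted p = 0.00072), and Psme3, the nuclear activator, fell by 0.28 in KO (adjusted p = 0.034) and by 0.27 in WT muscle (adjusted p = 0.032). The Psme3 calls were lost when any of 6 arrays (KO) or any of 5 (WT) was left out. A second probe set that Psme2 shares with Psme2b read 10.10 to 10.38 on day 4 KO arrays against 9.59 to 9.90 at day 2, and 10.07 to 10.49 on day 4 WT arrays against 8.97 to 9.66 at day 2.

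**Figure D3:**
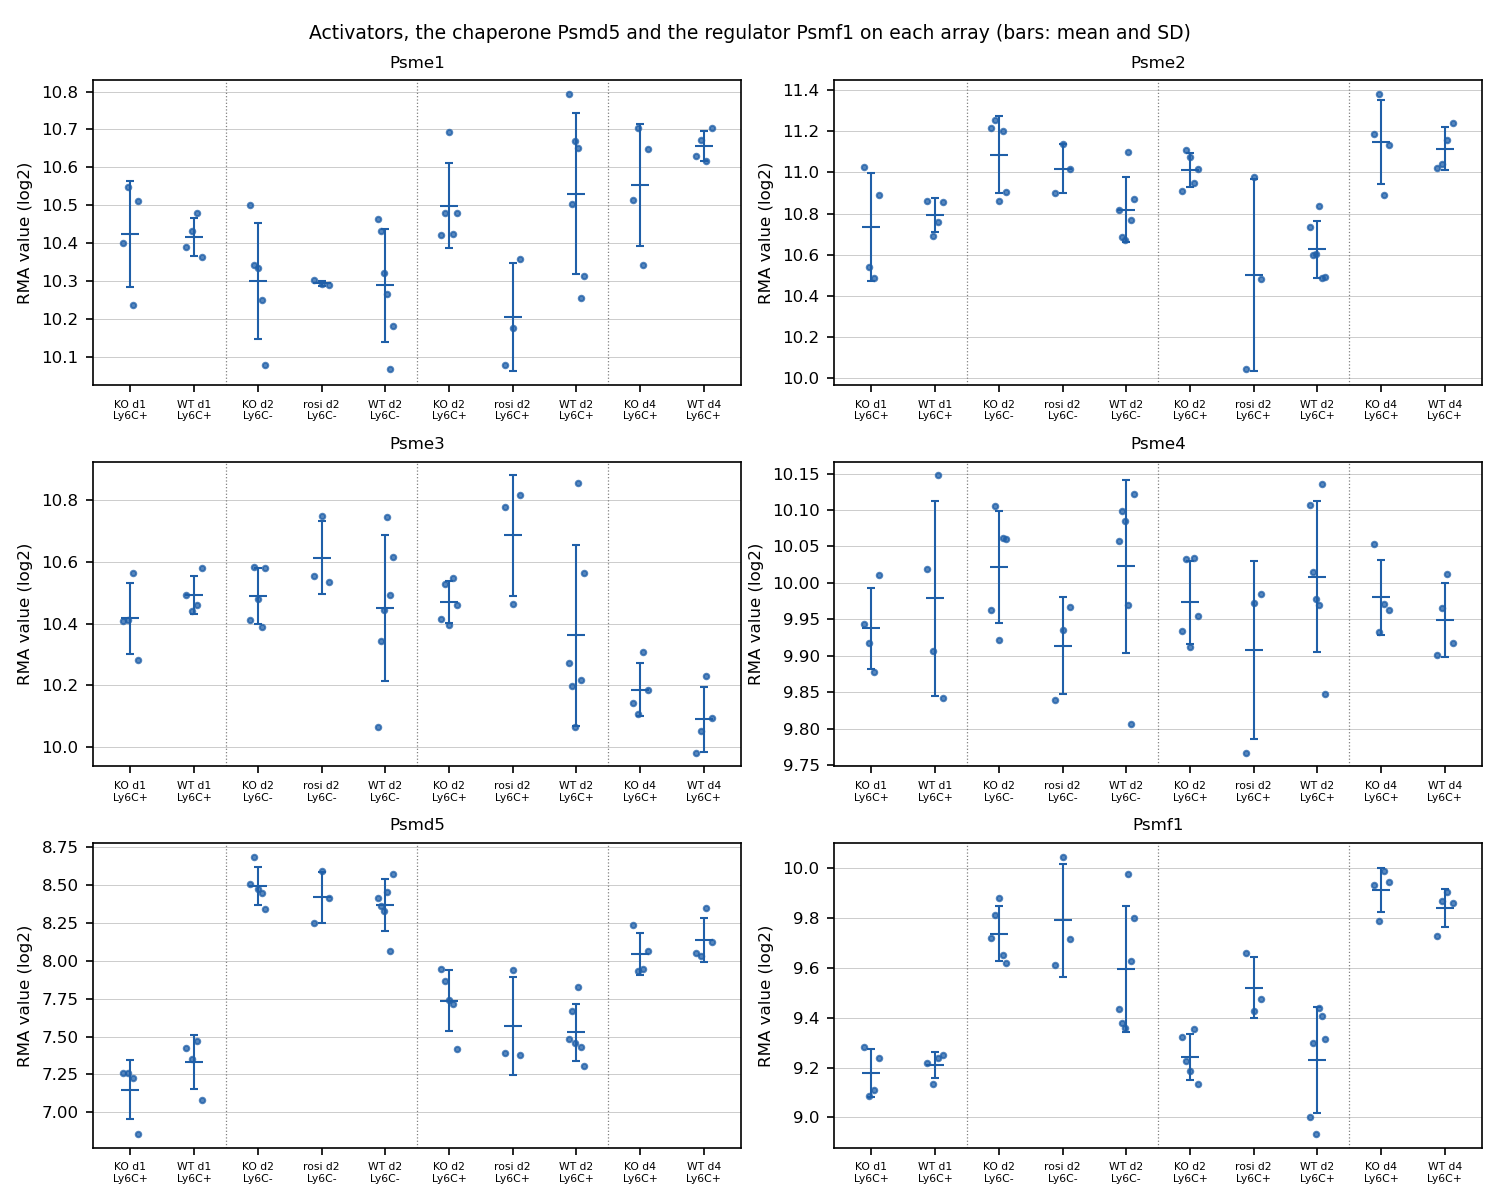
RMA log2 values of the 4 activator genes, the 19S chaperone Psmd5 and the regulator Psmf1 on every array, with group means and SD. Psmf1 was highest at day 4 and Psmd5 in day 2 Ly6C- MFs, whereas Psme4 varied little between groups.

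Setting the day 4 samples against day 2 Ly6C- MFs instead, a comparison added after the marker levels were seen, gave opposite directions for constitutive and immunoproteasome genes. Constitutive subunits were lower at day 4, with 0 higher and 21 lower in KO muscle (median -0.46, where 24.8% of all genes passed, 13.1% higher and 11.8% lower) and 0 higher and 18 lower in WT muscle (median -0.32, where 29.3% passed, 14.1% higher and 15.2% lower). With WT day 2 replicates 1 to 3, 1 was higher and 15 lower (34.7% of all genes passed), and with replicates 4 to 6, 0 were higher and 23 lower (24.1%). Of the accessory and tissue-specific genes, 1 was higher and 2 lower in KO and 1 higher and 3 lower in WT muscle. Immunoproteasome genes were higher in 3 of 3 cases in both genotypes and with either set of WT arrays, with Psmb9 at 0.77 ± 0.11 in KO muscle (limma adjusted p = 9.2e-07) and at 1.13 ± 0.11 in WT muscle (adjusted p = 5.8e-11). Psmb6 was lower at day 4 in this comparison, at -0.49 ± 0.11 in KO muscle (adjusted p = 0.00042) and -0.32 ± 0.10 in WT muscle (adjusted p = 0.014), while Psmd14 was lower again (-0.73 ± 0.09 in KO and -0.70 ± 0.09 in WT muscle). Psmf1 no longer passed (0.18 in KO and 0.25 in WT muscle).

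Cell markers were also compared between day 4 and day 2 Ly6C+ MFs. Over all genes, 22.3% were higher and 22.5% lower at day 4 in KO, and 23.8% and 26% in WT muscle. With WT day 2 replicates 1 to 3, 54% of all genes passed, and with replicates 4 to 6, 39%. Neutrophil markers were lower at day 4, in 8 of 12 cases in KO and 10 of 12 in WT muscle. Their mean level in WT was 5.98 to 6.06 at day 4 against 6.80 to 7.10 in day 2 Ly6C+ MFs. Muscle fibre markers were higher in 7 of 10 cases in both genotypes and lower in 1 case in KO, and 14 of 15 cell cycle genes were higher. The cell cycle mean was 8.21 to 9.13 on day 4 KO arrays and 8.89 to 8.95 on day 4 WT arrays. Of T and NK cell markers, 1 of 10 was higher in KO and 3 of 10 in WT muscle (1 with WT day 2 replicates 1 to 3, 2 with replicates 4 to 6). Endothelial markers were lower in 2 of 8 cases in KO and 7 of 8 in WT muscle (7 with replicates 1 to 3, 5 with 4 to 6), and fibroblast markers higher in 4 of 8 in KO and 2 of 8 in WT muscle (1 with replicates 1 to 3, 4 with 4 to 6). Of 8 dendritic cell markers, 3 were higher and 2 lower in KO and 2 higher and 2 lower in WT muscle. Against day 2 Ly6C- MFs in WT muscle, 34.7% of all genes passed with replicates 1 to 3 and 24.1% with replicates 4 to 6. With these sets, 6 and 4 of 10 T and NK cell markers were higher at day 4. With either set, 4 of 8 dendritic cell, 5 of 8 fibroblast and 7 of 10 muscle fibre markers were higher. Of 15 cell cycle genes, 9 were higher with either set, and 2 and 4 were lower. Neutrophil markers were lower in 4 and 3 of 12 cases and endothelial markers in 0 and 1 of 8. Their part in the day 4 values was not tested.

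Each immunosubunit was also set against the constitutive subunit that it replaces, as the difference of both log2 values on the same array. This measures unequal change of the pair, not their ratio in the cell. In WT muscle, Psmb9 less Psmb6 was -2.30 ± 0.11 in Ly6C- MFs and -1.22 ± 0.24 in Ly6C+ MFs (SD, n = 6 each), a difference of -1.09, and Psmb8 less Psmb5 was -2.68 ± 0.11 in Ly6C- MFs and -2.12 ± 0.36 in Ly6C+ MFs, a difference of -0.56. Both had an adjusted p of 0.0130 by exact two-sided permutation test over 12 such results, from p = 0.00216, the smallest that 6 against 6 arrays allow. Psmb10 less Psmb7 differed by -0.30 (adjusted p = 0.0961 by exact permutation test). In KO muscle the subset differences were -0.32, -0.64 and -0.45 for the pairs of Psmb8, Psmb9 and Psmb10 (adjusted p = 0.0317, 0.0286 and 0.0444 by exact permutation test). The KO calls of the Psmb8 and Psmb10 pairs were lost in 3 and 7 of the 10 cases in which 1 array was left out.

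At day 4 the pairs in WT muscle moved the other way. Psmb10 less Psmb7 was 0.70 ± 0.17 at day 4 (SD, n = 4) and -0.12 ± 0.34 in day 2 Ly6C+ MFs (SD, n = 6), a difference of 0.82 without overlap (adjusted p = 0.0286, exact permutation test). Psmb8 less Psmb5 differed by 0.59 and Psmb9 less Psmb6 by 0.36 (adjusted p = 0.0444 for both, exact permutation test), with overlapping arrays, and each call was lost in 9 of 10 cases with 1 array left out. From day 1 to day 2, Psmb9 less Psmb6 differed by 0.52 (adjusted p = 0.0317, exact permutation test), where Psmb6 fell, and the other pairs by -0.05 and -0.02.

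**Figure D4:**
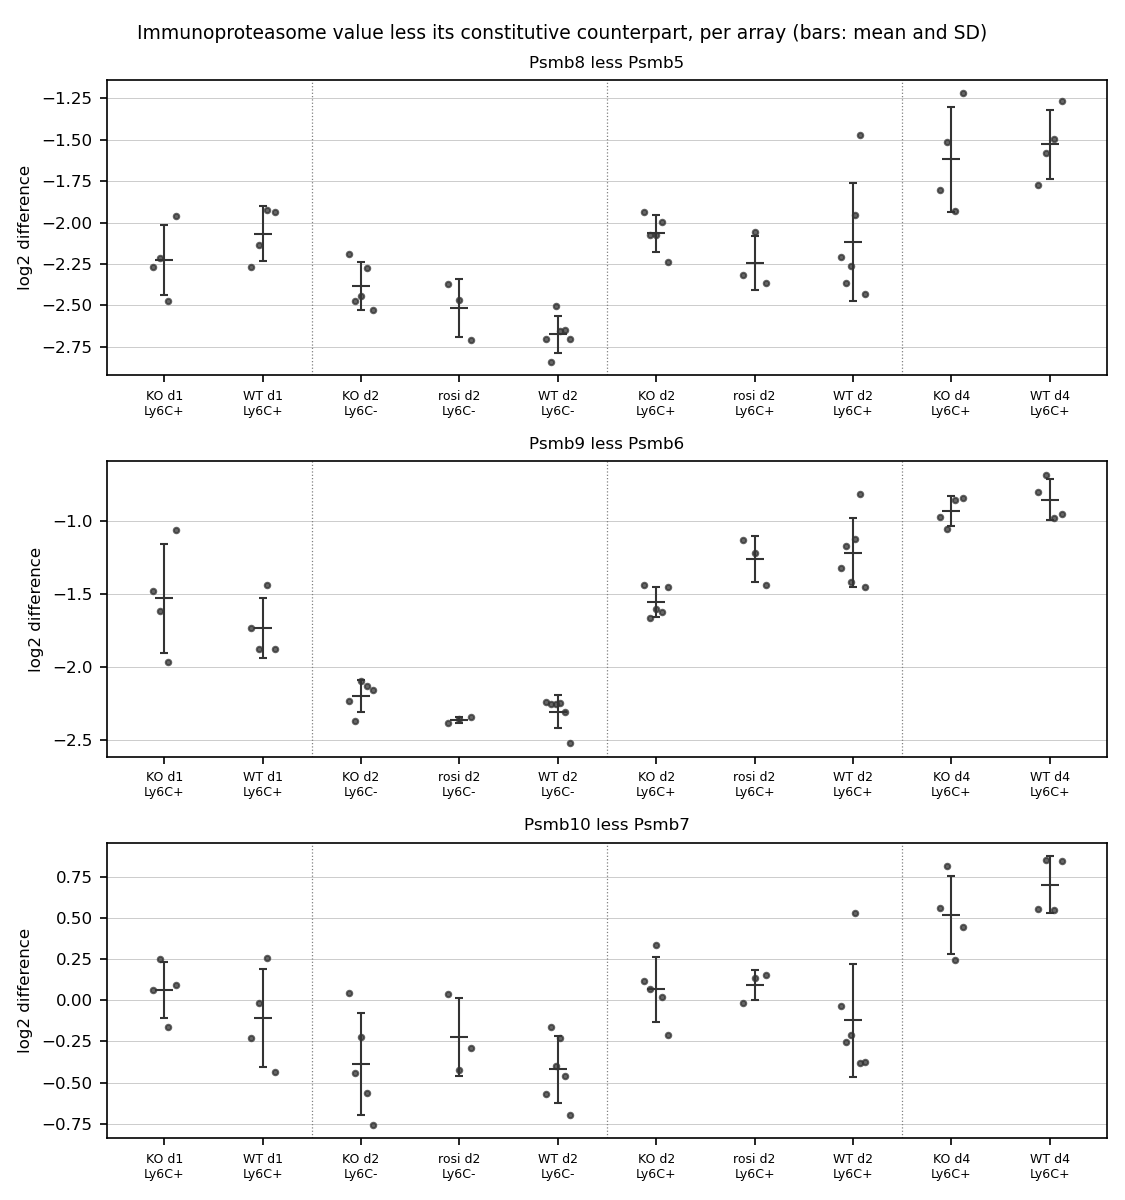
Log2 value of each immunosubunit less that of the constitutive subunit it replaces, on every array, with group means and SD. All 3 pairs were lowest in the day 2 Ly6C- groups and highest at day 4, with Psmb9 less Psmb6 between -2.52 and -2.09 on the day 2 Ly6C- arrays.

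The third comparison set KO against WT MFs of the same day and subset. In Ly6C+ MFs of day 2, 6 constitutive subunits were higher and 0 members lower in KO, where 1.88% of all genes passed (1.09% higher and 0.787% lower). Among the 5403 genes at least as bright as the dimmest constitutive subunit, 3.48% were higher and 0.962% lower. The count of members was 3 without KO replicate 2 and 11 without WT replicate 4. It was 1 with only the compared groups fitted and 2 with the replicate number as a block. At day 1, in day 2 Ly6C- MFs and at day 4, 0 members passed by limma (0.0351%, 0.201% and 0.0652% of all genes), and 1, 6 and 1 had an unadjusted p below 0.05. Whether the day 2 Ly6C+ effect differed from that in Ly6C- MFs or at the other days is the same interaction test as above, which passed for 0 members.

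Psmb4, a core beta subunit without an active site, read 11.52, 11.84, 11.41, 11.58 and 11.65 on the KO arrays. On the WT arrays it read 10.52, 10.53 and 10.48 in replicates 1 to 3 and 11.15, 10.43 and 11.38 in replicates 4 to 6. The groups did not overlap, and the difference was 0.85 ± 0.17 (limma adjusted p = 0.0046). Psmb6 was 0.60 ± 0.10 higher in KO (adjusted p = 0.00051), at 10.48 to 10.83 on KO arrays against 9.84 to 10.23 on WT arrays. Psmc4, an ATPase, was 0.53 higher (adjusted p = 0.0045), at 10.27 to 10.50 in KO against 9.54 to 10.16 in WT, and the alpha subunit Psma6 was 0.54 higher (adjusted p = 0.018), with 1 WT array among the KO arrays. Without KO replicate 2, Psma6 had an adjusted p of 0.0772. Psmd6 was 0.52 higher (adjusted p = 0.042) and lost its call when any of 9 arrays was left out. Psmd2, a scaffold of the cap base named after its value was seen, was 0.46 higher (adjusted p = 0.031).

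These values depended on which WT day 2 arrays were used. Against WT replicates 1 to 3, 11 constitutive subunits were higher and 4 lower in KO (15.1% of all genes passed), and against replicates 4 to 6, 5 were higher and 0 lower (1.62%). Psmb4 differed by 1.09 against the first set and by 0.61 against the second (limma adjusted p = 0.0377). Psmb6 differed by 0.49 and 0.71, whereas Psmd6 differed by 0.73 and 0.31 (adjusted p = 0.273 for the second set) and Psmd2 by 0.59 and 0.33 (adjusted p = 0.145). Psmg4, named after its values were seen, was lower in KO by -0.60 against the first set and -0.05 against the second. In Ly6C- MFs, 8 constitutive subunits were higher and 3 lower against the first set (14.4% of all genes), and 0 passed against the second (0.115%). Endothelial markers moved with the same arrays: 4 of 8 were lower in KO Ly6C+ MFs of day 2 (7 against the first set, 0 against the second), and their mean level was 6.48 to 6.62 on KO arrays against 6.41 to 7.17 on WT arrays. Their part in these values was not tested.

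Immunoproteasome genes did not pass in any of the 4 KO comparisons. Psmb9 came nearest, at 0.26 ± 0.10 in Ly6C+ MFs (limma adjusted p = 0.193) and 0.25 ± 0.10 in Ly6C- MFs of day 2 (adjusted p = 0.416), against 0.15 ± 0.12 at day 1 and -0.11 ± 0.12 at day 4.

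The fourth comparison set rosiglitazone-treated against untreated WT muscle at day 2. In Ly6C+ MFs, 5 members were higher and 3 lower under rosiglitazone, where 11.1% of all genes passed (5.52% higher and 5.6% lower). In Ly6C- MFs 0 members passed by limma (0.0351% of all genes), with 3 at an unadjusted p below 0.05. Psmd14 read 10.56, 10.63 and 10.53 on the rosiglitazone Ly6C+ arrays against 10.82, 10.97 and 11.14 as lowest, median and highest untreated, a difference of -0.38 ± 0.10 without overlap (adjusted p = 0.01). Psmb4 was 0.67 higher (adjusted p = 0.021) and Psmb3 0.33 higher (adjusted p = 0.012), and Psme1 was 0.33 lower, a difference of -0.33 (adjusted p = 0.028). Psmd13 and Psma1 also passed as higher and Psmd12 as lower.

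Every one of these calls was lost without at least 1 array. Without rosiglitazone replicate 1, Psmb3 had an adjusted p of 0.112, Psmd14 of 0.0538 and Psme1 of 0.183, and without rosiglitazone replicate 2, Psmb4 had an adjusted p of 0.13. The counts also followed the WT set: 11 constitutive subunits were higher and 8 lower against WT replicates 1 to 3 (27.3% of all genes passed), and 1 was higher and 1 lower against replicates 4 to 6 (1.55%). In Ly6C- MFs, 8 were higher and 2 lower against the first set (12.8%) and 0 passed against the second (0.015%). Immunoproteasome genes gave 0.12, -0.12 and -0.03 in Ly6C+ MFs and -0.06, -0.02 and 0.07 in Ly6C- MFs for Psmb8, Psmb9 and Psmb10, and none passed with either set. Of 8 endothelial markers, 4 were lower under rosiglitazone in Ly6C+ MFs (8 against WT replicates 1 to 3, 0 against 4 to 6), with a mean level of 6.45 to 6.60 against 6.41 to 7.17 untreated. Both comparisons use the same untreated WT arrays, so their values are not independent of each other.

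**Figure D5:**
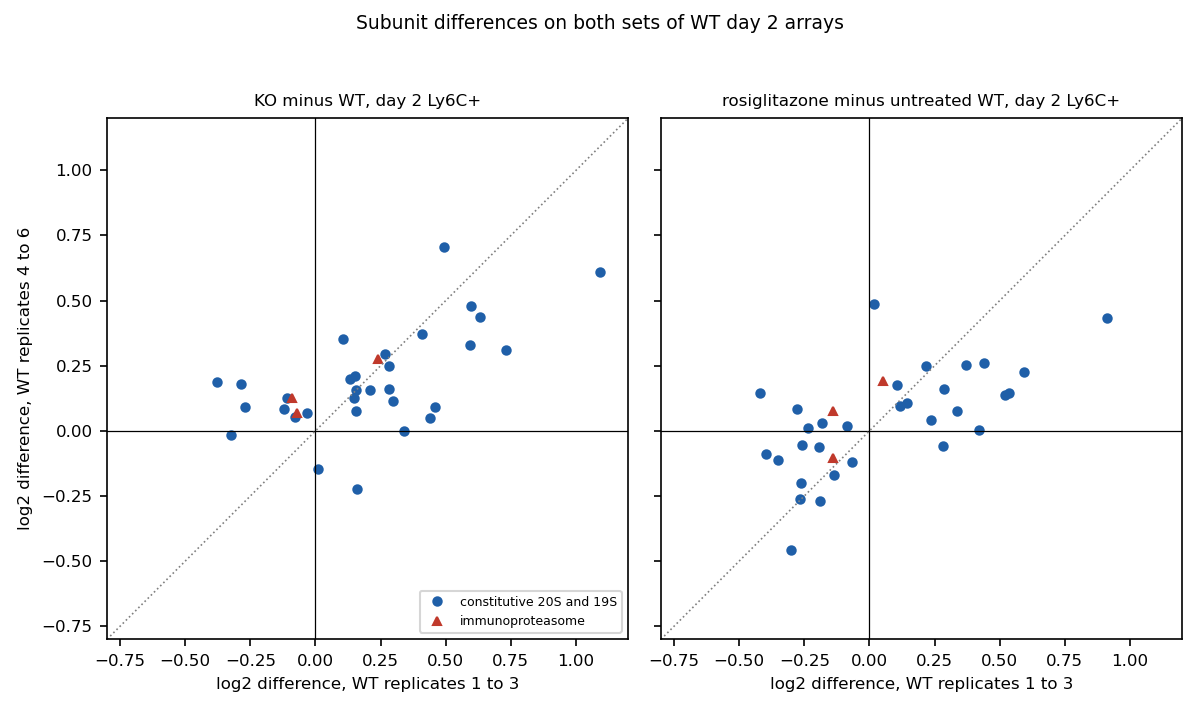
Log2 difference of each constitutive subunit (blue circles) and immunoproteasome gene (red triangles) in day 2 Ly6C+ MFs, computed against WT replicates 1 to 3 (x axis) and 4 to 6 (y axis), for KO minus WT and for rosiglitazone minus untreated WT; the dotted line marks equal values. The differences spread further along the x axis, and Psmb4, the farthest point in the left panel, lies at 1.09 and 0.61.

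Genes that work with the proteasome were followed in a pair of lists. The MHC class I processing list had 14 of 20 genes measured. At day 4 against day 2 Ly6C+ MFs, 6 rose and 3 fell in KO muscle (44.8% of all genes passed) and 8 rose and 2 fell in WT muscle (49.8%). With WT day 2 replicates 1 to 3, 9 rose and 3 fell (54%), and with replicates 4 to 6, 6 rose and 1 fell (39%). Irf8, a transcription factor of monocytes, rose by 1.23 and 1.36 in KO and WT muscle, and Tap1, a subunit of the peptide transporter and a genomic neighbour of Psmb9, by 0.67 and 0.92. Tapbpl, a peptide editor, rose by 0.84 and 0.82, whereas the ER chaperone Hspa5 fell by 0.77 and 0.72. Between the day 2 subsets in WT muscle, 3 were higher and 5 lower in Ly6C- MFs (45.2% of all genes passed). The counts were 1 and 7 with replicates 1 to 3 (34.8%), and 1 and 4 with replicates 4 to 6 (30%). Among the lower genes were Nlrc5 and Irf1, both activators of class I genes, at -0.71 each, and Tap1 at -0.54. Within this list the immunoproteasome genes thus shared the direction of Tap1 at day 4, while Tap1 passed and they did not between the day 2 subsets; the difference between the genes was not tested.

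The assembly, shuttling and ubiquitin list had 20 genes measured. In Ly6C- against Ly6C+ MFs of day 2, 7 were higher and 0 lower in KO muscle (38.4% of all genes passed), 7 and 0 under rosiglitazone (23.2%), and 8 and 1 in untreated WT muscle (45.2%). In KO and WT muscle this was about the share of all genes. The counts were 5 and 1 with WT replicates 1 to 3 (34.8% of all genes passed), and 6 and 0 with replicates 4 to 6 (30%). Uchl5, a deubiquitinase that docks on the 19S cap, was 0.97 higher in WT (limma adjusted p = 4.5e-12), and Usp14, another cap-bound deubiquitinase, 0.39 higher. Vcp, the segregase that delivers ubiquitinated proteins, was 0.33 higher and Akirin2, which carries proteasomes into the nucleus, 0.32 higher. Nfe2l2, a stress-response transcription factor, was lower (-0.27). At day 4, 2 rose and 7 fell in KO muscle (44.8% of all genes) and 1 rose and 4 fell in WT muscle (49.8%). With either set of WT day 2 arrays 2 rose and 6 fell, where 54% (replicates 1 to 3) and 39% (replicates 4 to 6) of all genes passed. Among the genes that fell were Zfand5, an activator of the 26S proteasome, at -0.69 and -0.68, Zfand2a at -0.71 and -0.66 and Txnl1, a cap-bound thioredoxin, at -0.46 and -0.64. Ngly1, which removes sugar chains from proteins bound for degradation, rose by 0.54 in KO and 0.44 in WT muscle. None of the 20 passed in the 4 comparisons of KO with WT. Against WT day 2 Ly6C+ replicates 1 to 3 alone, however, 1 was higher and 1 lower in KO (15.1% of all genes passed).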

How the data were processed

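RNA of sorted muscle MFs was hybridized to 44 1-colour Affymetrix mouse gene arrays. The authors deposited 1 table of log2 values made with RMA (background correction, quantile normalization and probe set summary, per the labels), and the array annotation that pairs probe sets with genes can be old. The table held 35556 probe sets, 21789 of them with 1 gene symbol, 1621 with several and 12146 with none. Values ran from 1.46 to 13.63, and array medians from 6.64 to 6.77. The number of arrays limits the precision.

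For each gene the probe set with the highest mean was used, which left 19938 genes, and 5 members had several probe sets. Differences of group means were tested with limma 3.58.1 in R 4.3.3 (lmFit and eBayes, 1 mean per group, all 44 arrays, 34 residual degrees of freedom), with Benjamini-Hochberg adjustment over all genes and a threshold of 0.05. Differences between paired subunits were tested by exact two-sided permutation. The fit was tested on simulated data. The members and gene lists were chosen with earlier results of these data known. Members named in each comparison were mostly drawn from the catalytic subunits, the activators and up to 4 further members with the largest changes in each direction. Not all of these are printed in every comparison. Promoter windows came from RefSeq (GRCm38.p6), and all 50 member symbols matched RefSeq.

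Arrays with the same replicate number deviated together in the rosiglitazone subsets (r 0.134 to 0.443 in the 3 pairs), a pairing seen in the data and not stated in the labels. In the other subset contrasts, 4 of 5 KO pairs (r up to 0.285) and 5 of 6 WT pairs (r up to 0.6) had r above 0.1, which fell short of all pairs. The main limma tests and the permutation tests of subunit pairs treated arrays as independent, although these pairs may not be. The replicate block was an alternative for limma only. Alternatives covered normalization, dim genes, probe set averaging, the variance prior, the arrays fitted, the replicate block, both sets of WT day 2 arrays and leaving out each array.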

Additional observations from a re-analysis of the deposited data

Results flagged for a closer look

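The 31 named members were searched for outliers by Dixon's test in each group of at least 4 arrays, which left out both rosiglitazone groups. Each test covered the values of 1 gene in 1 group. Of 248 such tests, 14 (5.65%) flagged a value far from the rest of its group, where chance flags about 1 in 20. Among immunoproteasome genes, Psmb8 read 8.39 on WT day 2 Ly6C+ replicate 6, under the next lowest value of 9.07, and 9.22 on WT day 1 replicate 3, above the next at 8.92. Psmb10 read 9.45 on KO day 2 Ly6C+ replicate 5, under 9.80.

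Among core subunits, Psmb5 read 10.77 on KO day 4 replicate 4 (next 11.26), Psmb1 9.64 on KO day 4 replicate 3 (next 9.86), Psma3 10.10 on WT day 2 Ly6C- replicate 5 (next 10.66) and Psma1 10.59 on KO day 2 Ly6C+ replicate 3 (next 10.83), all below their groups. Among cap subunits, Psmd14 read 10.76 on KO day 4 replicate 4 (next 10.39) and Psmd1 10.75 on KO day 4 replicate 1 (next 10.63), both above, and Psmd12 8.95 on KO day 4 replicate 3 (next 9.15), below. Among activators and chaperones, Psme1 read 10.69 on KO day 2 Ly6C+ replicate 3 (next 10.48) and Psmd10 10.07 on KO day 2 Ly6C- replicate 5 (next 9.72), both above, while Psmd5 read 6.86 on KO day 1 replicate 4 (next 7.23) and Psmg2 8.13 on KO day 4 replicate 2 (next 8.38), both below. Of these values, 6 are on day 4 KO arrays.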

How the results depend on the processing

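The number of arrays and the split of the day 2 arrays labelled WT limited these results, and no measure of signal over background was used here. The WT and KO subset counts of 32 and 21 members stayed between 27 and 32 and between 16 and 21 with 1 array left out, and the day 4 counts between 22 and 27 in WT and between 14 and 18 in KO. The rosiglitazone subset count of 22 ranged from 9 to 23, with 14 without rosiglitazone Ly6C+ replicate 3 or Ly6C- replicate 2. The WT day 2 minus day 1 count of 4 ranged from 3 to 7 (7 without WT day 2 replicate 6), the KO count of 2 from 2 to 5 (5 without KO day 2 replicate 5), the KO minus WT day 2 Ly6C+ count of 6 from 3 to 11 (3 without KO replicate 2, 11 without WT replicate 4) and the rosiglitazone Ly6C+ count of 8 from 1 to 14 (1 without rosiglitazone replicate 1, 14 without WT replicate 4). The interaction of genotype with day 4 minus day 2 gave 0 to 1 (1 without WT day 2 Ly6C+ replicate 4).

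With WT day 2 replicates 1 to 3 alone, counts were 14 for WT day 2 minus day 1, 18 for KO minus WT in Ly6C+ and 15 in Ly6C- MFs, 24 for rosiglitazone in Ly6C+ and 15 in Ly6C- MFs, and 1, 8 and 7 for the interactions of rosiglitazone with subset and of genotype with both time steps. With replicates 4 to 6 alone, rosiglitazone in Ly6C+ MFs gave 2. Fitting the compared groups only gave 2 and 8 for day 2 minus day 1 in WT and KO, 1 for KO minus WT and 0 for rosiglitazone in Ly6C+ MFs. Without dim genes, KO day 2 minus day 1 gave 5. With the replicate block on arrays that share numbers, the counts were 11 for KO day 2 minus day 1, 2 for KO minus WT in Ly6C+ MFs, 15 and 4 for rosiglitazone in Ly6C+ and Ly6C- MFs, 1 for genotype by day 2 minus day 1 and 21 for the rosiglitazone subsets. Equal array medians and quantile normalization moved the split of higher and lower members at day 4 to 5 and 12 or 3 and 14 in KO and to 13 and 13 or 13 and 14 in WT, and that for rosiglitazone in Ly6C+ MFs to 6 and 1 or 5 and 4.

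For the subunit pairs, 3 arrays against 3, as between the WT subsets, cannot pass by permutation (smallest p 0.10). The time steps set 3 day 2 arrays against 4, and their calls were also lost with either set. So few arrays have a higher floor than the full groups, and the p-values were adjusted over all pair results. The loss of these calls therefore cannot show whether the differences depend on the set. With replicates 1 to 3 and 4 to 6, the WT subset differences were -0.40 and -0.72 for Psmb8 less Psmb5 and -0.95 and -1.23 for Psmb9 less Psmb6. Psmb9 less Psmb6 gave 0.43 and 0.60 for day 2 minus day 1, and the day 4 differences were 0.75 and 0.42, 0.45 and 0.27, and 0.87 and 0.78 for the Psmb8, Psmb9 and Psmb10 pairs, with 0.30 for the Psmb9 pair after quantile normalization. With 1 array left out, the Psmb8 and Psmb9 pairs ranged from -0.62 to -0.43 and from -1.13 to -1.01 between WT subsets and from 0.50 to 0.72 and 0.31 to 0.44 at day 4, where Psmb10 less Psmb7 ranged from 0.77 to 0.95. In KO subsets Psmb8 less Psmb5 ranged from -0.37 to -0.28 and Psmb10 less Psmb7 from -0.56 to -0.36. Against day 2 Ly6C- MFs, an alternative added after seeing the data, the day 4 values of Psmb6, Psmd5 and Psmb1 in WT turned to -0.32, -0.23 and -0.029, and those of Psmg2, Psmd10 and Psmd5 in KO to -0.23, -0.25 and -0.45. The causes were not tested.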
